A study of Mus musculus with 4 samples.

Results

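The nuclear genes of the mitochondrial ribosomal proteins were followed across 4 RNA-seq libraries labelled as female germline stem cells. That name is the labels' own, it was not tested, and marker genes are given below. The genes were taken by name, as mouse symbols that begin with Mrpl or Mrps followed by a digit, with pseudogene names left out. This gave 78 of the 32812 genes with a symbol in the deposited count table. Of these, 51 encode proteins of the large subunit and 26 encode proteins of the small subunit. Mrps18a and Mrps30 carry small-subunit names, but their products sit in the large subunit and are grouped there. Mrps36, the remaining gene, is now known for a protein of the oxoglutarate dehydrogenase complex and not of the ribosome. The spermidine group comprised 2 libraries of C57BL/6 mouse cells passaged over 20 times and exposed to spermidine for 4 h. The control group comprised 2 libraries with the same cell label, without spermidine. Female germline stem cells are a cultured line with germ cell properties derived from the ovary, and spermidine is a polyamine, a small cation present in all cells. The labels give no dose. They also do not say that libraries came from separate cultures, so a p-value here reflects the spread between libraries, which may be technical alone.

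The mitochondrial ribosome makes the few proteins encoded by the mitochondrial genome, all of them membrane subunits of the respiratory chain and ATP synthase. Its RNAs come from the mitochondrial genome, whereas all its proteins are encoded in the nucleus, made in the cytosol and imported. Some of these proteins have a counterpart in bacterial ribosomes and others occur in mitochondria only. Promoters of such nuclear genes are known for binding sites of NRF1, of ETS-family factors such as GABPA, and of YY1.

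The libraries differed in depth and content between the groups. They held 787600 and 1718944 counts in spermidine replicates 1 and 2, against 7206176 and 7128901 in control replicates 1 and 2. The row of AY036118, a long noncoding RNA, took 29.6% and 30.7% of the spermidine counts, against 1.68% and 1.64% of the control counts. Of 1277 gene models of olfactory and vomeronasal receptors, genes of sensory neurons, 848 and 121 had counts in spermidine replicates 1 and 2, against 21 and 61 in control replicates 1 and 2. Per kilobase of receptor sequence this was 3.19 and 0.174 counts in the spermidine libraries, against 0.0594 and 0.155 in the controls, and it serves here as a measure of background. Spermidine replicate 1 therefore stood apart by its low depth and by this background. Of the 10 listed germ cell markers, 3 had enough counts to be tested. Ddx4, the germ cell RNA helicase, had 1 and 0 counts in the spermidine libraries and 0 in both controls. Prdm1 and Gfra1 were at 0 in both controls, with 11 and 0 counts of Prdm1 and 0 and 1 of Gfra1 in spermidine. Dppa3, a germ cell and oocyte gene, had 9 and 263 counts in spermidine, against 2 and 3 in control, and Ifitm3 had 72 and 146, against 49 and 132. Tex19.1, a germline and pluripotency gene, had 36 and 25 counts in spermidine, against 1955 and 1770 in control. These are raw counts from libraries of unequal depth. On scaled library totals, Ifitm3 had a log2 fold change of spermidine over control of 2.83 (edgeR quasi-likelihood test, Benjamini-Hochberg adjusted p = 0.0133). By this test Dppa3 was also higher in spermidine and Tex19.1 was lower.

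The count table showed only some of the 78 genes. Rows with no unshared base held almost no counts, so in this table a gene is seen on the bases that no other row shares, called its own bases here. After a filter on low counts, 51 members could be tested, 36 of the large and 15 of the small subunit. The tested members had a median of 988 own bases, against 78 for the 27 that were not tested. Of those 27, 19 had under 300 own bases and 12 had no count in any library. The most counts among them were those of Mrps14, a small-subunit protein with a bacterial counterpart, with 8 and 1 in spermidine and 14 and 12 in control. Mrps33, specific to the mitochondrial small subunit, had 0 and 1 counts in spermidine, against 14 and 5 in control. Mrpl39, of the large subunit, had 3 and 2 counts in spermidine and 6 and 6 in control. These low counts do not show that a gene was silent, and the same holds for other genes with few own bases.

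**Figure D1:**
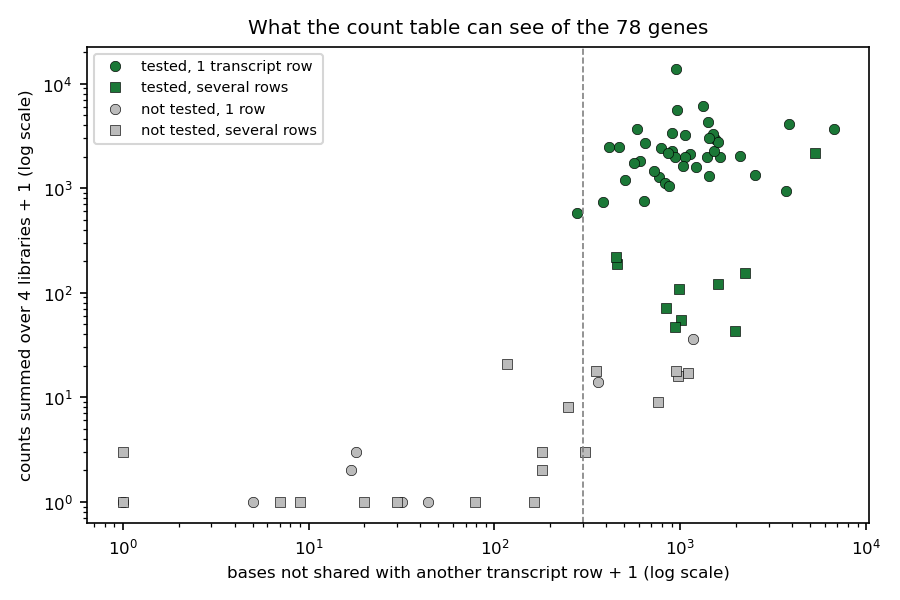
Each point is 1 of the 78 genes, placed by its own bases (x axis, bases + 1, log scale) and by its counts summed over the 4 libraries (y axis, counts + 1, log scale). Green marks the 51 tested members and grey the 27 others, circles have 1 transcript row and squares several, and the dashed line is at 300 own bases. Of the genes left of the line, 1 was tested.

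Most tested members had lower relative levels in the spermidine libraries, few of them past the threshold. By the quasi-likelihood test of edgeR, at a Benjamini-Hochberg adjusted p under 0.05, 4 of 51 tested members (7.84%) fell, against 313 of 7836 tested genes (3.99%). The 4 were Mrpl9, Mrps16, Mrpl19 and Mrpl15. Of these, Mrpl9 passed the low-count filter through the controls alone, where it was high. None of the 51 rose by edgeR, DESeq2 or limma-voom, and none of those with a positive fold change had an unadjusted p under 0.05 in any of the 3 fits, against 1943 called higher among all tested genes (24.8%). Both spermidine libraries lay below both controls for 36 members (70.6%), against 29.6% of all tested genes. They lay above both controls for 3 members (5.88%), against 36.6% of all tested genes, and the groups overlapped for 12. The log2 fold change of spermidine over control was negative for 43 members and positive for 8. Its median over the members was -0.91, with quartiles of -1.20 and -0.46, and it was also -0.91 with the 2 members of lowest counts at their bound. Over all tested genes the median was 0.23 with the scaling used here and 0.37 with upper-quartile scaling. The members' median minus that of all genes was -1.15 and -1.17 on these scales. That gap was smaller, at -0.60, with the controls thinned to the mean spermidine depth. It was -0.61 among genes with at least 1 CPM in all 4 libraries. In bulk RNA, fewer cells of a type and less RNA per cell cannot be told apart. The member calls by edgeR were lost without spermidine replicate 1 and without either control, and in these fits calls over all tested genes were fewer too. Without spermidine replicate 2 the calls grew in number, for the members and for all genes. The medians of members and of all genes were -0.50 and 0.00 without spermidine replicate 1, and -1.45 and 0.40 without replicate 2. They were -0.81 and 0.30 without control replicate 1, and -0.84 and 0.35 without control replicate 2.

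**Figure D2:**
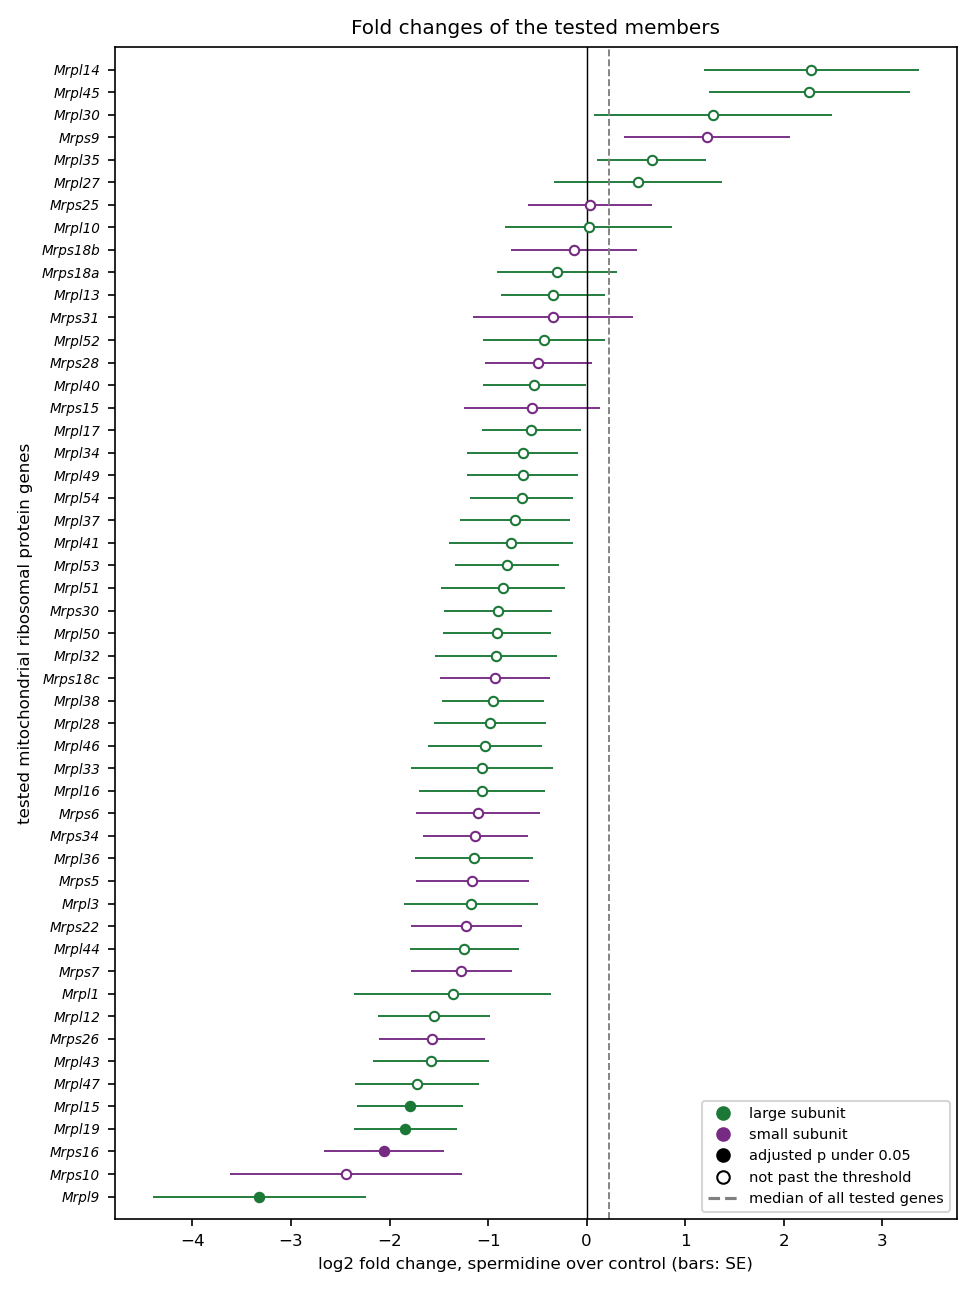
Each row is 1 of the 51 tested members, with its log2 fold change of spermidine over control on the x axis and its standard error as a bar. Green marks the large and purple the small subunit, filled points passed the threshold, and the dashed line is the median of all tested genes (0.23). The 4 filled points lie between -3.32 and -1.79, and 43 of the 51 points lie left of 0.

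Among the 4 members that fell, Mrpl19 had the most counts. It encodes a large-subunit protein whose bacterial counterpart sits at the interface of the subunits, and it lies on chromosome 6 from 81957826 to 81965949 (GRCm38). It had 74 and 105 counts in spermidine, against 1842 and 2102 in control. On the scaled library totals (normalised CPM) these were 84.6 and 74.7 in spermidine, against 266.9 and 304.2 in control. Both spermidine libraries were low and close to each other, and the groups did not overlap. Mrpl19 had a log2 fold change of -1.84 ± 0.52 (SE, edgeR quasi-likelihood test, Benjamini-Hochberg adjusted p = 0.0273).

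Mrpl15 encodes a large-subunit protein with a bacterial counterpart and lies on chromosome 1 from 4773198 to 4785750. It had 46.9 and 40.6 normalised CPM in spermidine, from 41 and 57 counts, against 147.4 and 153.8 in control, from 1017 and 1063 counts. The replicates of each group were close and the groups were apart, with a log2 fold change of -1.79 ± 0.54 (edgeR adjusted p = 0.0374). Mrpl15 has several transcript rows and was counted on 5286 own bases, for which the receptor background amounts to 16.9 of its 41 counts in spermidine replicate 1. With that background subtracted from all genes, an alternative added after the data were seen, its log2 fold change was -1.86 (edgeR adjusted p = 0.035).

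Mrps16 encodes a small-subunit protein with a bacterial counterpart, known in humans from a mitochondrial disease, and lies on chromosome 14 from 20391222 to 20393634. It had 18.3 and 37.7 normalised CPM in spermidine, from 16 and 53 counts, against 134.9 and 106.6 in control, from 931 and 737 counts. Spermidine replicate 1 was the lowest library, spermidine replicate 2 stood above it, and neither reached the controls. The log2 fold change of Mrps16 was -2.06 ± 0.61 (edgeR adjusted p = 0.0344). With limma-voom the calls of Mrps16 (adjusted p = 0.0601) and Mrpl15 (0.0561) were lost, and with the receptor background subtracted that of Mrps16 was lost (edgeR adjusted p = 0.0506).

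Mrpl9 encodes a large-subunit protein whose bacterial counterpart lies near the base of the L1 stalk, on chromosome 3 from 94443154 to 94448708. It had 1 and 2 counts in spermidine, against 102 and 83 in control, which is 1.14 and 1.42 against 14.8 and 12 normalised CPM. The groups did not overlap, but 3 counts carry the spermidine level, which alone would not have passed the low-count filter. From the pooled counts the ratio of spermidine to control was 0.0983 (95% counting interval 0.0201 to 0.292), and intervals given here cover counting error only. The fitted log2 fold change was -3.32 ± 1.08 (edgeR adjusted p = 0.0413). The call of Mrpl9 was lost with DESeq2 (adjusted p = 0.0969) and with upper-quartile scaling (edgeR adjusted p = 0.076). Without spermidine replicate 2 the other 3 were called by edgeR, with adjusted p between 0.00292 and 0.0199, and Mrpl9 was not (0.0568). All 4 calls were lost without spermidine replicate 1, without control replicate 1 and without control replicate 2.

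Mrpl12 had the highest level per kilobase of own bases among the 40 tested members with a single row and at least 300 own bases. Its product is the stalk protein of the large subunit, which binds translation factors. Mrpl12 had 333.8 and 351.0 normalised CPM per kilobase in spermidine, against 677.2 and 1329.6 in control. The spermidine libraries were close to each other and below both controls, and the control replicates differed from each other by more than the lower one differed from spermidine. The log2 fold change of Mrpl12 was -1.55 ± 0.57 and missed the threshold (edgeR adjusted p = 0.0722). It was -0.98 without control replicate 2.

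Mrps26 encodes a small-subunit protein specific to mitochondria, and Mrps7 encodes a protein of the small-subunit head that contacts its RNA. Mrps26 had 131.5 and 127.4 normalised CPM in spermidine, against 287.9 and 481.1 in control, and a log2 fold change of -1.57 ± 0.54 (edgeR adjusted p = 0.0584). Mrps7 had 170.4 and 168.7 normalised CPM in spermidine, against 350.5 and 468.1 in control, and a log2 fold change of -1.27 ± 0.51 (edgeR adjusted p = 0.0963). For both genes the spermidine libraries nearly coincided and lay below both controls, and neither passed the threshold. Mrps26 was called by DESeq2 (adjusted p = 0.0495). Without spermidine replicate 2, edgeR called Mrps26 (adjusted p = 0.023), Mrps7 (0.0443) and Mrpl12 (0.02).

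The other abundant members were large-subunit genes with smaller differences. Mrpl38 had a log2 fold change of -0.95 ± 0.52, Mrpl37 of -0.73 ± 0.56 and Mrpl54 of -0.66 ± 0.52, all 3 encoding proteins specific to mitochondria (edgeR adjusted p = 0.207, 0.363 and 0.379). Mrpl17, whose product lies near the exit of the nascent-chain tunnel, had -0.56 ± 0.50 (edgeR adjusted p = 0.439). Each of the 4 was below both controls in both spermidine libraries. Without spermidine replicate 2, edgeR called Mrpl38 (-1.23, adjusted p = 0.0431) and Mrpl37 (-1.39, adjusted p = 0.0306), and without spermidine replicate 1 the value of Mrpl37 was -0.28. Per kilobase of own bases, Mrpl54 came second with 220.1 and 301.9 normalised CPM in spermidine, against 344.4 and 481.7 in control. Mrpl52, next in that order, had 133.2 and 425.0 in spermidine and 358.8 and 407.4 in control, so that these neighbours did not differ beyond the spread of their libraries. The lowest of the 40 by the mean of both groups was Mrpl35, with 18.6 and 26.8 in spermidine and 15.9 and 13.0 in control.

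**Figure D3:**
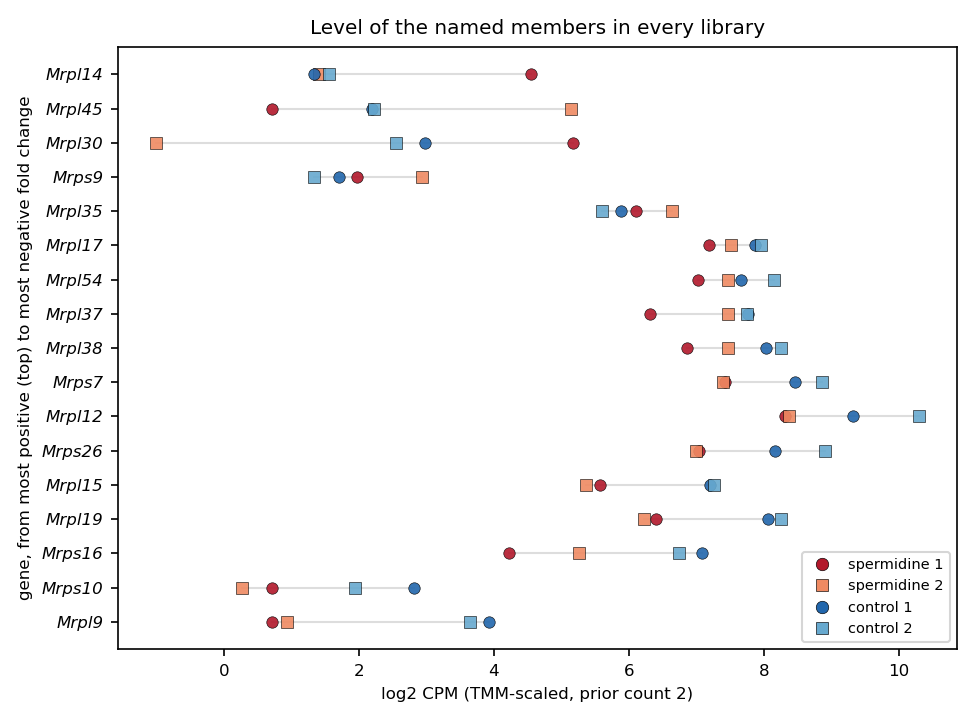
Log2 CPM (scaled, prior count 2, x axis) of the named members that were tested, ordered by fold change, with 1 point per library in red tones for spermidine and blue tones for control. In the lower rows, Mrpl9, Mrps10, Mrps16, Mrpl19 and Mrpl15, both red points lie left of both blue points. In the upper rows the spermidine replicates lie far apart for Mrpl14, Mrpl45 and Mrpl30.

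The members with the most positive fold changes had few counts. Mrpl14, a protein of the subunit interface, had 20 and 3 counts in spermidine, against 14 and 17 in control. Mrpl45, which ties the ribosome to the inner membrane near the tunnel exit, had 1 and 49 counts in spermidine, against 28 and 29 in control. Mrpl30, of the large subunit, had 31 and 0 counts in spermidine, against 51 and 37 in control, all on 1 of its 2 rows. In each of these 3 genes 1 spermidine library carried the difference, and the groups overlapped. Their log2 fold changes were 2.28 ± 1.09 for Mrpl14, 2.26 ± 1.02 for Mrpl45 and 1.28 ± 1.21 for Mrpl30 (edgeR adjusted p = 0.157, 0.136 and 0.466). The sign turned for Mrpl14 without spermidine replicate 1 (-0.07), for Mrpl45 without spermidine replicate 2 (-1.77), and for Mrpl30 without spermidine replicate 1 (-8.02) and with limma-voom (-0.65).

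Mrps9, a protein of the small-subunit head, and Mrpl35, of the large subunit, were 2 of the 3 members above both controls, with Mrpl27, which has a bacterial counterpart, as the other. Mrps9 had 3 and 10 counts in spermidine and 19 and 14 in control, with a log2 fold change of 1.22 ± 0.84 (edgeR adjusted p = 0.314). Its normalised CPM were 3.43 and 7.12 in spermidine, against 2.75 and 2.03 in control. The receptor background in spermidine replicate 1 amounts to 2.97 of the 3 counts of Mrps9. For Mrpl27 it amounts to 6.33, more than its 4 counts there, and for Mrpl35 to 11.8. Mrpl35 had 60 and 139 counts in spermidine and 405 and 333 in control, with a log2 fold change of 0.66 ± 0.55 (edgeR adjusted p = 0.402). Of the 8 members with a positive fold change, 5 had under 100 counts in each control. At the other end, Mrps10, of the small-subunit head, had 1 and 1 counts in spermidine, against 45 and 23 in control. Its pooled ratio was 0.178 (95% counting interval 0.0212 to 0.669), with a log2 fold change of -2.44 ± 1.18 (edgeR adjusted p = 0.153). Like Mrpl9, Mrps10 passed the low-count filter through the controls alone.

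The members differed by how they could be counted. The 41 tested members with a single row had a median log2 fold change of -0.92, 38 of them negative, whereas the 10 with several rows had a median of 0.09, 5 of them negative. In limma-voom the median of those 10 was -0.55, and it was -0.96 and -1.02 without spermidine replicates 1 and 2. All 5471 tested genes with a single row had a median of 0.18. The receptor background came to under 20% of the counts in spermidine replicate 1 for 41 of the 51 members and to 50% or more for 6, and its part in their values was not tested. With that background subtracted from all genes, the members' median was -0.69 and that of all genes -0.01.

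Both subunits had negative medians, and the difference between them was not tested. The 36 tested large-subunit members had a median log2 fold change of -0.87, with 3 lower (8.33%, against 3.99% of all tested genes). The 15 small-subunit members had a median of -1.10, with 1 lower (6.67%). The summed counts of large over small members stood at 2.73 and 3.33 in the spermidine libraries and 2.83 and 2.75 in the controls, so the groups overlapped. The 29 tested members with a bacterial counterpart had a median of -1.06 and included all 4 calls. The 22 mitochondria-specific members had a median of -0.79 and 0 calls by edgeR, with 2 lower at an unadjusted p under 0.05, 1 lower by DESeq2 and 0 by limma-voom. The difference between these classes was not tested.

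The spermidine libraries differed more from each other than the controls did. Across the 51 members, spermidine replicate 1 minus replicate 2 had a median of -0.61 in log2 CPM and an SD of 1.5. It ranged from -4.43 for Mrpl45 to 6.18 for Mrpl30. Control replicate 1 minus replicate 2 had a median of -0.01 and an SD of 0.397. It ranged from -0.97 for Mrpl12 to 1.07 for Mrpl1. The median tested member had 36 and 112 counts in the spermidine libraries, against 907 and 863 in the controls. Across these genes, the order of the levels correlated between the spermidine libraries with a Spearman rho of 0.76 (n = 51 members), between the controls with 0.96, and between groups with 0.772 to 0.843.

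Summed counts gave the same picture with a smaller gap once AY036118 was set aside. The 78 members took 0.316% of all counts in spermidine replicate 1 (95% exact Clopper-Pearson interval 0.304 to 0.329) and 0.380% in replicate 2 (0.371 to 0.389). They took 0.655% in control replicate 1 (0.649 to 0.661) and 0.764% in control replicate 2 (0.757 to 0.770). The spermidine libraries were lower and the groups did not overlap, with a ratio of the mean shares of 0.49. Without the AY036118 row the shares were 0.449% and 0.548% in spermidine, against 0.666% and 0.776% in control, and the ratio was 0.691. An exact permutation test of 2 against 2 libraries cannot give a two-sided p below 0.333.

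**Figure D4:**
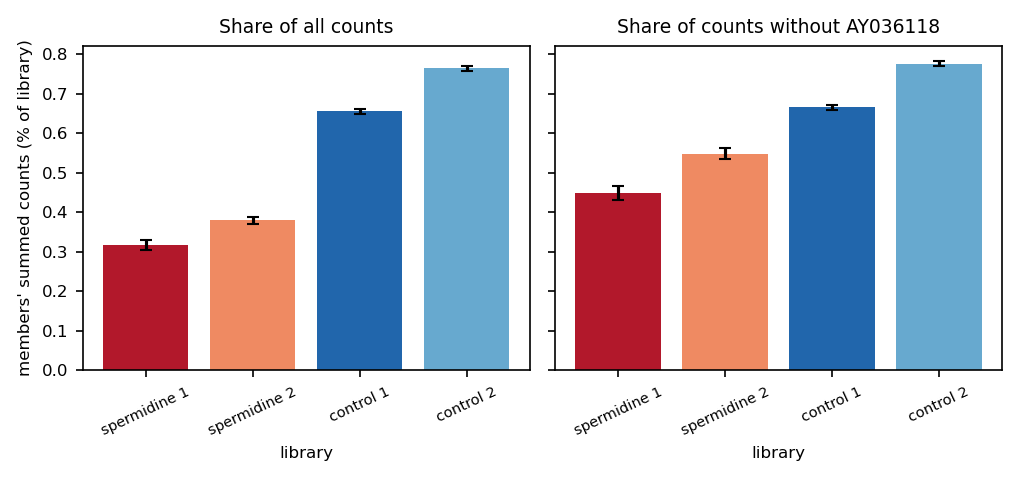
Summed counts of the 78 members as a percent of each library, out of all counts (left) and out of counts without AY036118 (right), with 95% exact binomial intervals that cover counting error only. Bars start at 0 and stand for 1 library each, spermidine in red tones and control in blue tones. In both panels both spermidine bars are lower than both control bars, and the gap is smaller on the right.

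Against other genes of oxidative metabolism and translation the members did not stand apart in summed counts. Per 100 counts of nuclear respiratory-chain genes there were 43.4 and 25.5 member counts in spermidine, against 28.8 and 40.2 in control. Per 100 counts of cytosolic ribosomal protein genes there were 10.3 and 5.25 in spermidine, against 6.87 and 9.48 in control. Per 100 counts of the protein-coding genes of the mitochondrial genome there were 8.68 and 13.4 in spermidine, against 12.9 and 21.3 in control. The groups overlapped in all 3 ratios.

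Those related lists also had negative medians. The 58 tested nuclear respiratory-chain genes had a median log2 fold change of -0.59, with 1 lower, Sdhd, a membrane anchor of succinate dehydrogenase. The 54 tested cytosolic ribosomal protein genes had a median of -0.58, with 2 lower, Rps2 and Rpl26, whose reads can be shared with processed copies elsewhere in the genome. These calls were 1.72% and 3.7% of the 2 lists, against 3.99% of all tested genes called lower. Both spermidine libraries lay below both controls for 37.9% and 35.2% of these lists, against 29.6% of all tested genes. The 13 genes of the mitochondrial genome had a median of -0.33 and 0 called by edgeR, DESeq2 or limma-voom, with 0, 1 and 1 at an unadjusted p under 0.05. The calls and the distance between the lists moved with the library left out. By edgeR, calls in both lists grew in number without spermidine replicate 2 and were lost without spermidine replicate 1. Calls over all tested genes grew and shrank in the same fits. Without spermidine replicate 1 the medians were -0.50 for the members, -0.07 for the respiratory chain, -0.06 for cytosolic ribosomal proteins and 0.00 for all genes. Without spermidine replicate 2 they were -1.45, -1.47, -1.70 and 0.40 in the same order.

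**Figure D5:**
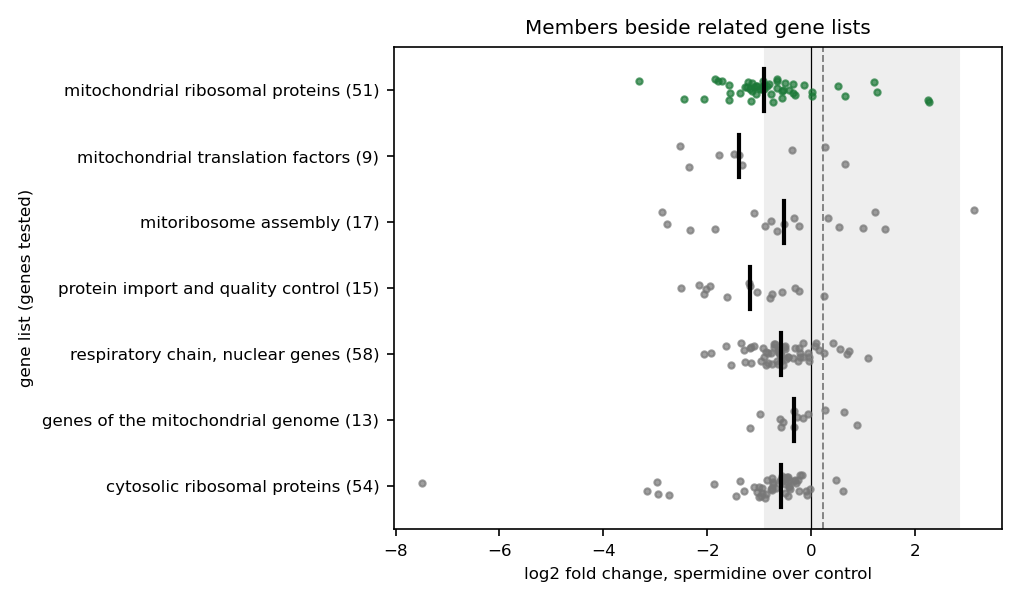
Log2 fold changes of spermidine over control for the tested genes of each list, 1 point per gene, with the number tested in brackets and the list's median as a black bar. The grey band spans the quartiles of all tested genes (-0.89 to 2.86) and the dashed line is their median (0.23). All 7 list medians lie below 0, at -0.91 for the mitochondrial ribosomal proteins.

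Genes that work with the mitochondrial ribosome were given from fixed lists. Of 9 tested mitochondrial translation factors and mRNA regulators, 3 fell (33.3%) and 0 rose, with a median of -1.39. Of all tested genes, 3.99% were called lower and 24.8% higher. Lrpprc, which stabilises mitochondrial mRNAs, had 33 and 55 counts in spermidine, against 1847 and 1208 in control (log2 fold change -2.52 ± 0.57, edgeR adjusted p = 0.011). Mtfmt, which formylates the initiator methionyl-tRNA, had -2.34 ± 0.68 (edgeR adjusted p = 0.0306), and Gfm1, an elongation factor, had -1.77 ± 0.52 (edgeR adjusted p = 0.0313). Of 15 tested genes of protein import and quality control, 5 fell (33.3%, against 3.99% of all tested genes), with a median of -1.17. They were Timm23 (-2.50 ± 0.57) and Timm17a (-2.05 ± 0.53), of the inner membrane channel, Tomm70a (-2.15 ± 0.54), an outer membrane receptor, and the matrix chaperone genes Hspa9 and Hspe1, all with edgeR adjusted p between 0.0113 and 0.0377. In both lists the calls were lost without spermidine replicate 1, where the medians were -1.15 and -0.65. Calls grew in number without spermidine replicate 2, as over all tested genes, and the medians were -1.75 and -1.99.

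Among 5 tested mitochondrial aminoacyl-tRNA synthetases 1 fell (20%, against 3.99% of all tested genes). It was Mars2, the methionine enzyme, with 47 and 19 counts in spermidine, against 1235 and 1538 in control (-2.65 ± 0.71, edgeR adjusted p = 0.0216). That call was lost without spermidine replicate 1. The median of these enzymes was -0.43, and it was 0.00 and -1.07 without spermidine replicates 1 and 2. Among 17 tested genes of ribosome assembly and rRNA modification 1 rose (5.88%, against 24.8% of all tested genes). This was Ngrn, with 3 and 11 counts in spermidine and 6 and 3 in control (3.15 ± 0.90, edgeR adjusted p = 0.0266). Ngrn passed the low-count filter through the spermidine libraries alone, and DESeq2 and limma-voom called none of these genes. Without either spermidine replicate edgeR called no assembly gene higher (3 and 0 higher at an unadjusted p under 0.05 without replicates 1 and 2). The median of these assembly genes was -0.52. None of 5 tested genes of mitochondrial DNA and RNA maintenance was called by edgeR or limma-voom, with 2 lower at an unadjusted p under 0.05 in each. DESeq2 called 2 of them lower, against 4.89% of all genes in that fit. Of 5 mitochondrial ribosomal proteins with other names 2 were tested, Chchd1 and Gadd45gip1, with fold changes of 0.05 and -0.80 on the log2 scale and 0 at an unadjusted p under 0.05.

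The listed regulators of nuclear mitochondrial genes, transcription factors and coactivators, had fold changes in both directions. Of 9 tested, 2 rose (22.2%, against 24.8% of all tested genes) and 0 fell (1 lower at an unadjusted p under 0.05). Their median was 0.07, and it was -0.67 and 0.81 without spermidine replicates 1 and 2. Mycn, a MYC-family transcription factor, had 12 and 341 counts in spermidine, against 6 and 1 in control (7.93 ± 1.43, edgeR adjusted p = 0.00652). In normalised CPM it had 13.7 and 242.7 in spermidine, against 0.869 and 0.145 in control, so spermidine replicate 2 carried most of the rise. Mycn was counted on 2596 own bases, at a receptor background of 3.19 counts per kilobase in spermidine replicate 1. Ppargc1a, a coactivator of mitochondrial biogenesis, had 15 and 8 counts in spermidine, against 0 and 1 in control. Over the 4633 own bases of Ppargc1a the receptor background amounts to 14.8 counts in spermidine replicate 1, which is all but a fraction of its 15 (edgeR adjusted p = 0.00806, without subtracting it). Mycn and Ppargc1a passed the low-count filter through the spermidine libraries alone.

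Promoter windows were available in RefSeq (GRCm38.p6) for 69 of the 78 members, running from 250 bases before to 50 after the start of the gene. Searched on both strands were an NRF1 motif of 10 letters, a palindrome but for 2 central bases, the ETS letters CCGGAAG and a YY1 motif of 11 letters. At least 1 of these was found in 38 windows (55.1%), against 19.3% of 17492 protein-coding genes. The NRF1 letters were in 18.8% of member windows, against 7.17% of all, the ETS letters in 37.7%, against 12.9%, and the YY1 letters in 7.25%, against 1.06%. The CCAAT box (CCAAT) was in 39.1%, against 42.3% of all, the TATA box (TATAAA) in 7.25%, against 14.8%, and the E-box (CACGTG) in 7.25%, against 8.91%. No pair of different motifs overlapped in a member's window. A match describes letters and does not show that a factor binds.

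The windows below run from 100 bases before to 30 after the start and show each motif in a member described above or in one with a pair of motifs, with the matched letters in capitals. They belong to Mrpl12 (chr11:120484537-120484666, plus strand) and Mrpl17 (chr7:105811058-105811187, minus strand) with NRF1 letters, Mrpl43 (chr19:45006413-45006542, minus strand) with ETS letters at 2 places, and Mrps18a (chr17:46110904-46111033, plus strand) with ETS and YY1 letters.
Mrpl12: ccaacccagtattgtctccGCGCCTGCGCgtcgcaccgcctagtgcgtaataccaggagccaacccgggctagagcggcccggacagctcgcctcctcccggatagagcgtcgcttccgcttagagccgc
Mrpl17: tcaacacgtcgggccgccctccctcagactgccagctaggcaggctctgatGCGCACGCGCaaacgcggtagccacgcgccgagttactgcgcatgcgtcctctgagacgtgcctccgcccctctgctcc
Mrpl43: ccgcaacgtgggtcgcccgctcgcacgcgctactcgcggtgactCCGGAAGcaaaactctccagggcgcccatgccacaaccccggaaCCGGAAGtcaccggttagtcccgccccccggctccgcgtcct
Mrps18a: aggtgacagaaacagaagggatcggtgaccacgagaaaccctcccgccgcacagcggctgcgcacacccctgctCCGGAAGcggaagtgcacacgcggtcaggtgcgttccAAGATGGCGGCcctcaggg

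The fold changes of members with and without these letters covered overlapping ranges. The median log2 fold change was -0.74 for 10 tested members with the NRF1 letters and -0.90 for 34 without. It was -0.85 for 15 with the ETS letters and -0.91 for 29 without, and -0.30 for 3 with the YY1 letters and -0.92 for 41 without. Mrpl43, whose product is specific to mitochondria, had 23 and 36 counts in spermidine, against 503 and 569 in control (-1.58 ± 0.59, edgeR adjusted p = 0.0791, and 0.0475 without spermidine replicate 2). Mrps18a had 50 and 225 counts in spermidine, against 781 and 1095 in control, with overlapping normalised values (-0.30 ± 0.61, edgeR adjusted p = 0.747, and 0.24 on the log2 scale without spermidine replicate 1). Another property of the members was their placing in the genome. Of the 69 members with a window, 24 (34.8%) started within 1000 bases of a gene that runs the other way, against 8.48% of all protein-coding genes. Mrpl46 and Mrps11, 1 from each subunit, start 42 bases apart in this way.

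Genes that mark other cell types differed between the groups, and their part in the members' values was not tested. Of all tested genes, 24.8% were called higher and 3.99% lower by edgeR. A marker listed at 0 is named only where it has at least 300 own bases. Of the tested oocyte markers 5 of 5 rose (4 by limma-voom), with a summed level of 175.2 to 1795.9 CPM in spermidine, against 1.39 to 2.52 in control. Figla, not tested, had 1 and 0 counts in spermidine and 0 in both controls. Of the granulosa and theca markers 7 of 8 rose (2588.9 to 5733.8 CPM in spermidine, against 129.5 to 155.1 in control). Inhba, not tested, had 4 and 0 counts in spermidine and 0 in both controls. Of the stroma and fibroblast markers 5 of 7 rose (2214.3 to 8458.7 CPM, against 66.3 to 127.1). All 4 tested markers of the ovarian surface epithelium rose (109.2 to 197.8 CPM, against 0.278 to 0.842), and so did all 3 endothelial ones (96.0 to 116.8 CPM, against 0.561 to 1.39, with Kdr at 0 in both controls). The tested oocyte, surface epithelium and endothelial markers had at most 9 counts in a control. They passed the low-count filter through the spermidine libraries alone, so the fractions that rose were largely set by the filter. Several other markers, such as Foxl2, Lum and Dppa3, entered in the same way. Of the mast cell, myeloid and megakaryocyte markers 5 of 6 fell (144.3 to 394.9 CPM in spermidine, against 1864.0 to 2477.5 in control, with Spi1 at 0 in all libraries). Of 4 erythroid markers 2 rose and 1 fell (222.2 to 646.3 CPM in spermidine, against 188.0 to 299.7 in control). The germline list had 2 higher and 1 lower of 3 tested (172.7 to 256.0 CPM in spermidine, against 267.5 to 278.4 in control).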

How the data were processed

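Poly(A) RNA of 2 spermidine and 2 control samples was sequenced in pairs of reads, per the labels' protocols, which name a pair of library kits. HISAT2, DESeq2 and mm9 are named by the submitters' processing notes without a role or version. Which program counted the reads is not stated in the sources at hand. The authors deposited raw counts, whole and without normalisation, for 106519 RefSeq transcript rows. Of these, 86040 (80.77%) matched a symbol in the RefSeq gene table (GRCm38), and 88.54% of those matched that table's gene positions, so coordinates are credited to GRCm38 instead of mm9. In any library at most 0.0014% of counts lay on the 49975 rows without unshared bases. The 721 rows that share all their bases with other rows only once both strands are taken held at most 0.000555%. Counts thus appear to leave out shared bases on either strand, which no source states.

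Rows were summed per gene into 53291 features, and unmatched rows were kept as features of their own. filterByExpr of edgeR 4.0.16 (R 4.3.3) chose the genes to test, at a minimum count of 10 and a minimum total of 15. TMM factors and a glmQLFit and glmQLFTest model with only the group in it followed, leaving 2 residual degrees of freedom. P-values were adjusted over all 7836 tested genes. The procedure was tested on simulated data. There, changes went up or down at equal chance and the replicates of a group shared a mean. Uneven changes such as those seen here were not covered by it. Log2 CPM used a prior count of 2. A count of 0 allows 3 counts, which is 3.81 and 1.75 CPM in the spermidine libraries and 0.416 and 0.421 CPM in the controls.

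The members, gene lists, tests and the rule for named genes were chosen with earlier results of these data known. The rule takes members past the threshold, the 8 with the highest mean log2 CPM, the 5 most positive and 5 most negative, the 3 untested ones with the most counts, and up to 3 called genes per direction of each pathway list. Genes outside it are examples picked with their values known. The alternatives were other scalings, filters and thresholds, DESeq2 1.42.0, limma-voom (3.58.1), the legacy edgeR test, a replicate block, thinned controls, counts without AY036118, single-row genes, the receptor background subtracted, and each library left out in turn.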

Additional observations from a re-analysis of the deposited data

How the results depend on the processing

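The median log2 fold change of the members stayed negative in all alternatives, from -1.45 without spermidine replicate 2 to -0.44 with thinned controls. Without spermidine replicate 1 it was -0.50, and the range over the libraries left out was -1.45 to -0.50. The 4 lower calls became 3 with upper-quartile factors, library totals or the legacy test, and 2 with limma-voom. They became 2 with the receptor background subtracted (an alternative added after the data were seen), 0 at an adjusted p under 0.01 and 9 at an adjusted p under 0.1. Among single-row genes 3 members were lower, Mrpl19, Mrps16 and Mrps26, and Mrpl9 and Mrpl15 were not in that fit. By edgeR the lower calls were 0 with no low-count filter, 0 with at least 1 CPM in all 4 libraries and 0 with controls thinned to 1253272 counts. In these 3 settings 14, 9 and 3 members had an unadjusted p under 0.05. Leaving out 1 library gave 0 to 28 lower and 0 to 2 higher calls. The 28 and the 2, Mrpl14 and Mrpl30, came without spermidine replicate 2. In these fits a group's lone library takes its spread from the other group. Calls over all genes, 2256 in the main setting, fell to 0 by edgeR unless low counts were filtered (unadjusted p under 0.05 for 4255). They were 275 where all 4 libraries needed 1 CPM, 1068 with thinned controls, 1490 with the background subtracted and 1282 at an adjusted p under 0.01. They were 0 to 3725 over the libraries left out, with 0 without control replicate 1 (unadjusted p under 0.05 for 1926), 484 without spermidine replicate 1 and the highest number without spermidine replicate 2. The cause was not tested. The sign turned with the library left out for Mrpl14 (-0.07 to 3.40), Mrpl45 (-1.77 to 3.07) and Mrpl30 (-8.02 to 2.52), and for Mrpl30 with limma-voom (-0.65). With the replicate number as a block, 0 members were called by edgeR (5 at an unadjusted p under 0.05) and 1775 genes in all. Same-numbered samples did not deviate together (correlation -0.0299 across genes), and the numbers are not known to pair the samples. Depth limits the low members most, since a count of 0 in spermidine replicate 1 allows up to 3.81 CPM.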

Other observations

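Some neighbours that start head to head with a member had enough counts to be read. Twnk, the mitochondrial DNA helicase, which starts 116 bases from Mrpl43, had 56.0 and 45.6 normalised CPM in spermidine, against 114.2 and 252.4 in control, with no overlap. Psma2, a proteasome subunit gene 205 bases from Mrpl32, had 57.2 and 531.7 normalised CPM in spermidine, against 432.3 and 280.0 in control, and spermidine replicate 2 was above both controls. Ptcd2, a pentatricopeptide protein gene 108 bases from Mrps27, had 40.0 and 101.8 normalised CPM in spermidine, against 135.3 and 118.2 in control, with no overlap. The members lie on many chromosomes, with 11 of the 78 on chromosome 11 and 8 on chromosome 17.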
